A study of Mus musculus with 10 samples.

Results

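The YTH domain readers are proteins that bind N6-methyladenosine (m6A) in RNA, and the 5 mouse genes of the family are Ythdf1, Ythdf2, Ythdf3, Ythdc1 and Ythdc2. They were chosen by name, and all 5 were found among the 30419 genes with coverage in the files. The cells were J1 mouse embryonic stem cells, an established line grown without feeder cells. RNA was fragmented and m6A-bearing fragments were pulled down with an antibody (IP), and each IP library had an input library of fragmented RNA that was not pulled down. The 10 libraries were 5 such pairs: a first pair with no genotype stated, 2 pairs labelled Mettl3 wild type (WT) and 2 pairs labelled Mettl3 knockout (KO), with no drug treatment, time point or other allele given for any of them. The labels also mention differentiation by culture without the cytokine LIF, without tying it to a library. They do not say how the knockout was made, whether it was 1 clone or whether replicates were separate cultures. The p-values therefore rest on how far the libraries of a group differ, and that spread may be technical.

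METTL3 is the enzyme that deposits most m6A on messenger RNA, and YTH proteins read it through an aromatic pocket of the YTH domain that holds the methylated base. YTHDF1, YTHDF2 and YTHDF3 are cytoplasmic paralogues. YTHDF2 recruits the CCR4-NOT deadenylase to shorten the life of methylated messages, and YTHDF1 and YTHDF3 have been linked to translation and to decay. YTHDC1 is nuclear and has been linked to splicing and export of methylated transcripts. YTHDC2 is an RNA helicase needed for meiosis in germ cells. The readers' own messages can carry m6A, and the data below describe that methylation signal and the abundance of the 5 messages.

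Coverage was given in 468 exon windows for the 5 genes: 66 for Ythdf1, 84 for Ythdf2, 108 for Ythdf3, 70 for Ythdc1 and 140 for Ythdc2. A window held a median of 49.3 bases in single-exon genes with a RefSeq length. Exons are taken as numbered in ascending genome order, because the longer outer exon, usually the 3′ one, had the highest number in 92.4% of plus-strand genes and the lowest in 92.5% of minus-strand genes. Ythdf1 and Ythdf2 lie on the minus strand in RefSeq, so their exon 1 is the 3′ end of the message, and Ythdc1 lies on the plus strand, so its exon 17 is the 3′ end. The strand of Ythdf3 and Ythdc2 was not used here. The files hold coverage scaled by the authors and no read counts, so absolute depth is unknown. The WT and KO inputs had 0.284 to 0.516 of the depth of the first input, and the WT and KO IPs had 0.0606 to 0.159 of that of the first IP. Between 50.5 and 74.3% of all windows had no IP signal in the WT and KO libraries. The targeted gene Mettl3 had a mean input coverage of 12.9 in the first pair, 4.79 and 4.67 in the WT pairs and 3.14 and 3.38 in the KO pairs, so its message was lower but present in the libraries labelled KO. Which exons of Mettl3 were disrupted is not stated. All 10 of 10 embryonic stem cell markers were at 1 or more in each input, with a summed coverage of 2131 to 2906. Summed markers of fibroblasts or feeder cells came to 2.40 to 8.68, of endoderm to 0.274 to 2.43, of neuroectoderm to 1.82 to 7.96 and of mesoderm to 1.64 to 3.46. At 1 or more in each input were 1 of 5 fibroblast or feeder markers and 1 of 4 mesoderm markers. The same held for 0 of 5 endoderm and 0 of 4 neuroectoderm markers. The lowest single value was 0 in the fibroblast or feeder, endoderm and neuroectoderm lists. Lum, Afp and Zic1 had the lowest mean of these lists.

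The messages of Ythdf1, Ythdf2 and Ythdf3 carried strong m6A IP signal in every pair, Ythdc1 carried it in the WT and KO pairs, and Ythdc2 carried little. A score of the authors, the winscore, gives for each window the log2 of its IP coverage over the gene's IP median, relative to the same ratio in the input, after adding 1 to each value. Regions were runs of at least 2 windows whose winscore reached 2 or more in the first IP, a library that takes no part in the comparison of KO with WT. By this rule 10098 regions were found in 6098 of the 11211 genes tested. Ythdf1, Ythdf2 and Ythdf3 had 3 regions each. Ythdc1 and Ythdc2 had none in the first IP, where their highest winscores were 1.31 and 1.03.

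Each of the 3 Ythdf genes has a long internal exon, and most of its IP signal lay there. This is exon 2 of Ythdf1 with 31 windows, exon 2 of Ythdf2 with 32 and exon 6 of Ythdf3 with 32. In Ythdf1, exon 2 held 96.2% of the gene's IP coverage in the first pair, 86.7 and 87.0% in the WT pairs and 92.6 and 90.2% in the KO pairs. The same exon held 72.3% of the input coverage in the first pair, 43.3 and 38.0% in the WT pairs and 39.5 and 42.2% in the KO pairs. The IP share thus exceeded the input share in all 5 pairs. In Ythdf3, exon 6 held 88.3% of the IP coverage in the first pair, 85.4 and 89.0% in the WT pairs and 90.4 and 89.4% in the KO pairs. Its input share was 62.6% in the first pair, 27.0 and 22.4% in the WT pairs and 24.1 and 23.4% in the KO pairs, so the gap was wide in each WT and KO pair. The long outer exon held part of the IP coverage in each gene: exon 1 of Ythdf1 held 13.1 and 12.4% of the IP coverage in the WT pairs and 7.31 and 9.04% in the KO pairs, and exon 7 of Ythdf3 held 14.1 and 10.4% in the WT pairs and 8.35 and 10.3% in the KO pairs. Exon 2 of Ythdf2 held 64.2 and 61.5% of the IP coverage in the WT pairs and 72.8 and 64.3% in the KO pairs, and exon 1 held 35.7 and 38.4% in the WT pairs and 27.1 and 35.2% in the KO pairs. In the first pair exon 2 held 95.6% and exon 1 held 3.68%.

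**Figure D1:**
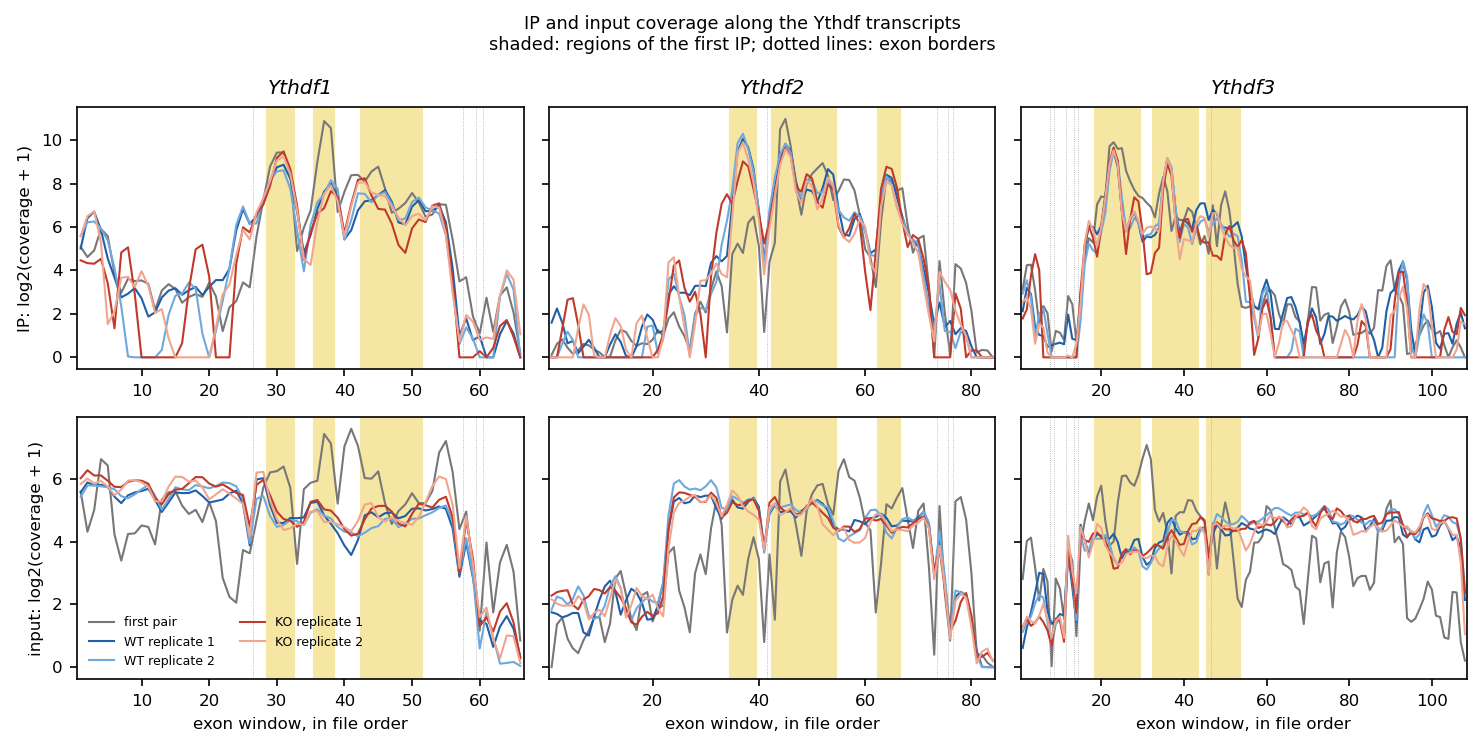
IP coverage (top) and input coverage (bottom), both as log2(coverage + 1), along the exon windows of Ythdf1, Ythdf2 and Ythdf3 in file order, with 1 line per library. Shading marks the 9 regions of the first IP and dotted lines mark exon borders. In several regions, such as the first of Ythdf1 and the first of Ythdf3, the WT and KO IP lines peak at the same window, while the input of the first pair has its own profile.

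In Ythdf1 the first peak in file order lay in exon 2, windows 3 to 6. Mean IP coverage of these 4 windows was 545 in the first pair, 367 and 315 in the WT pairs and 483 and 440 in the KO pairs. Mean input coverage was 70.6 in the first pair, 26.9 and 23.8 in the WT pairs and 30.9 and 26.1 in the KO pairs. Both KO IPs were above both WT IPs, and window 5 was the summit in all 5 pairs. The share of all regions that separate in plain coverage was not computed, here or for the Ythdf2 and Ythdf3 regions below. At window 5 the IP coverage was 692 in the first pair, 466 and 390 in the WT pairs and 713 and 607 in the KO pairs. The highest mean winscore of Ythdf1 in the first IP, 3.57, belonged instead to windows 10 to 12. Mean IP coverage there was 1296 in the first pair, 189 and 202 in the WT pairs and 138 and 166 in the KO pairs. Mean input coverage was also highest in the first pair, at 124, against 29.3 and 28.3 in the WT pairs and 33.8 and 26.0 in the KO pairs. The log2 IP over input, centred as described below, therefore differed less: 4.29 in the first pair, 3.62 and 3.91 in the WT pairs and 2.99 and 3.58 in the KO pairs. The summit of this region was window 11 in the first pair and window 12 in the other 4. Within this region the IP coverage of window 10 was 511.9 in the first pair, 112.6 and 140.9 in the WT pairs and 97.3 and 75.1 in the KO pairs. The third region, windows 17 to 25, had a mean IP coverage of 219.8 in the first pair, 137 and 143 in the WT pairs and 108 and 140.5 in the KO pairs, and the groups overlapped.

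In Ythdf2 the region with the highest winscore in the first IP, 3.34, was windows 2 to 13 of exon 2. Its mean IP coverage was 553 in the first pair, 361 and 365 in the WT pairs and 324 and 305 in the KO pairs, against a mean input of 38.4, 31.6 and 33.3, and 31.2 and 29.0 in the same order. Both KO values lay below both WT values, by a small margin. The summit was window 4 in all 5 pairs, where IP coverage was 2011 in the first pair, 908 and 912 in the WT pairs and 794 and 767 in the KO pairs. A shorter run, windows 22 to 25, had a mean IP coverage of 216.6 in the first pair, 242 and 213.0 in the WT pairs and 320.2 and 189 in the KO pairs. Its summit was window 23 in all 5 pairs, and the KO libraries fell on both sides of WT. The region in the 3′ exon, windows 35 to 39 of exon 1, had low IP coverage in the first pair, where its input was also low. Its IP coverage in WT was among the highest. Its mean IP coverage was 50.1 in the first pair, 624 and 707 in the WT pairs and 316 and 505 in the KO pairs. The KO libraries were both lower than WT and differed among themselves. At window 37, the summit in WT and KO, IP coverage was 26.9 in the first pair, 1070 and 1255 in the WT pairs and 518 and 947 in the KO pairs. Mean input coverage of this region was 7.80 in the first pair, 36.7 and 39.9 in the WT pairs and 37.2 and 36.8 in the KO pairs, so it was alike in WT and KO.

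In Ythdf3 the highest winscore in the first IP, 4.05, was in windows 5 to 15 of exon 6. The mean IP coverage of these windows was 442 in the first pair, 213.0 and 205 in the WT pairs and 235 and 214.3 in the KO pairs, against a mean input of 45.6, 15.1 and 13.0, and 12.5 and 13.0 in the same order. Both KO values lay just above both WT values in the IP and just below them in the input. Window 9 was the summit in all 5 pairs, with an IP coverage of 957 in the first pair, 709 and 723 in the WT pairs and 807 and 741 in the KO pairs. In windows 19 to 29 mean IP coverage was 125 in the first pair, 166 and 164 in the WT pairs and 135 and 148 in the KO pairs. The summit here was window 22 in WT and KO and window 21 in the first pair. The last region ran from window 32 of exon 6 to window 7 of exon 7, with a mean IP coverage of 83.1 in the first pair, 76.0 and 59.4 in the WT pairs and 37.2 and 56.2 in the KO pairs. It was the weakest of the 9 regions in WT and in KO by the IP over input ratio.

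These regions covered about 1 window in 4 of each gene and took most of its IP coverage. In Ythdf1 they held 24.2% of windows and 78.2% of the IP coverage in the first pair, 63.3 and 62.0% in the WT pairs and 64.1 and 65.1% in the KO pairs. In Ythdf2 they held 25.0% of windows and 81.7% of the IP coverage in the first pair, 88.0 and 87.7% in the WT pairs and 83.9 and 88.3% in the KO pairs. In Ythdf3 they held 27.8% of windows and 88.6% of the IP coverage in the first pair, 84.8 and 89.7% in the WT pairs and 89.3 and 87.0% in the KO pairs. The input share of the same windows in WT and KO was 18.1 to 22.3% in Ythdf1, 38.2 to 41.3% in Ythdf2 and 23.7 to 27.1% in Ythdf3.

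All 9 reader regions were enriched over the library's background in both genotypes. Enrichment was measured as log2((IP + 1)/(input + 1)) minus a background value of the same library. That background was the median of the same ratio over 5974 genes. For each gene it was taken from the mean coverage of windows with a winscore under 1 in the first IP. Genes needed a mean input coverage of at least 5 in these windows. In WT the 9 regions had means from 2.72 to 5.12, and in KO from 2.17 to 5.01 (n = 2 each). All 9 were above 0 by the test in WT (limma, highest adjusted p = 0.000492) and in KO (highest adjusted p = 0.00164). Among all 9554 regions tested, 98.5% passed in WT and 92.8% in KO, so the count in the readers was close to that of regions in general. The median over all regions was 4.07 in WT and 3.61 in KO.

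None of the 9 regions differed between KO and WT by the test, and the same held for regions of all genes. For the IP over input ratio 0 of 9554 regions passed (0%), with 16.6% at an unadjusted p under 0.05, and 0 of the 9 reader regions were at that level. For the winscore 0 of 10098 regions passed (0%), with 8.16% at an unadjusted p under 0.05, and again 0 of the 9. The ratio was lower in KO in 6 of 9 reader regions, against 77.6% of all regions. The median difference was -0.17 in the readers and -0.44 over all regions. The winscore was lower in KO in 4 of 9 reader regions, against 53.9% of all regions, with medians of 0.12 and -0.07.

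Among these 9 regions the widest gap in the ratio was in the 3′ exon of Ythdf2. Windows 35 to 39 of exon 1 had a centred log2 ratio of 3.45 in the first pair, 5.02 and 5.23 in the WT pairs and 4.05 and 4.69 in the KO pairs. Both KO libraries were below both WT libraries. The difference was -0.75 (SE 0.32, 95% interval -1.54 to 0.04, limma adjusted p = 0.305). Without KO replicate 2 it was -1.07 (adjusted p = 0.0371) and without KO replicate 1 it was -0.44 (adjusted p = 0.452). Each of these leaves a KO arm of 1 library that is assumed to vary like the WT libraries. Its winscore was 4.99 and 4.84 in the WT pairs and 3.83 and 3.96 in the KO pairs, a difference of -1.02 (95% interval -2.20 to 0.16, adjusted p = 0.626).

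The first peak of Ythdf1 ran the other way. Windows 3 to 6 of exon 2 had a ratio of 3.84 in the first pair, 4.69 and 4.78 in the WT pairs and 4.92 and 4.97 in the KO pairs. The groups did not overlap, but the difference was small at 0.21 (95% interval -0.41 to 0.83, limma adjusted p = 0.656). The winscore of this region was 3.21 and 2.87 in the WT pairs and 4.20 and 4.17 in the KO pairs, a difference of 1.15 (95% interval -0.10 to 2.40, adjusted p = 0.609). Across the 9 regions both KO winscores lay above both WT winscores in 3, against 17.7% of all regions, and below them in 2, against 22.2%. The winscore divides by the gene's median IP coverage, which was 45.5 and 47.6 in the WT pairs and 27.2 and 31.6 in the KO pairs for Ythdf1. The part of this median in the difference was not tested.

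The other 7 regions had differences in the ratio between -0.56 and 0.16. Among all 9, both KO values lay below both WT values in 4, against 46.1% of all regions, and above them in 1, against 7.39%. The 4 were windows 10 to 12 of Ythdf1 exon 2 (-0.48), the 2 regions of Ythdf2 at exon 1 windows 35 to 39 and exon 2 windows 2 to 13 (-0.75 and -0.17), and the region that spans exons 6 and 7 of Ythdf3 (-0.56). The 95% intervals of the 9 differences spanned from -1.86 to 1.02. They therefore do not show that WT and KO were alike.

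**Figure D2:**
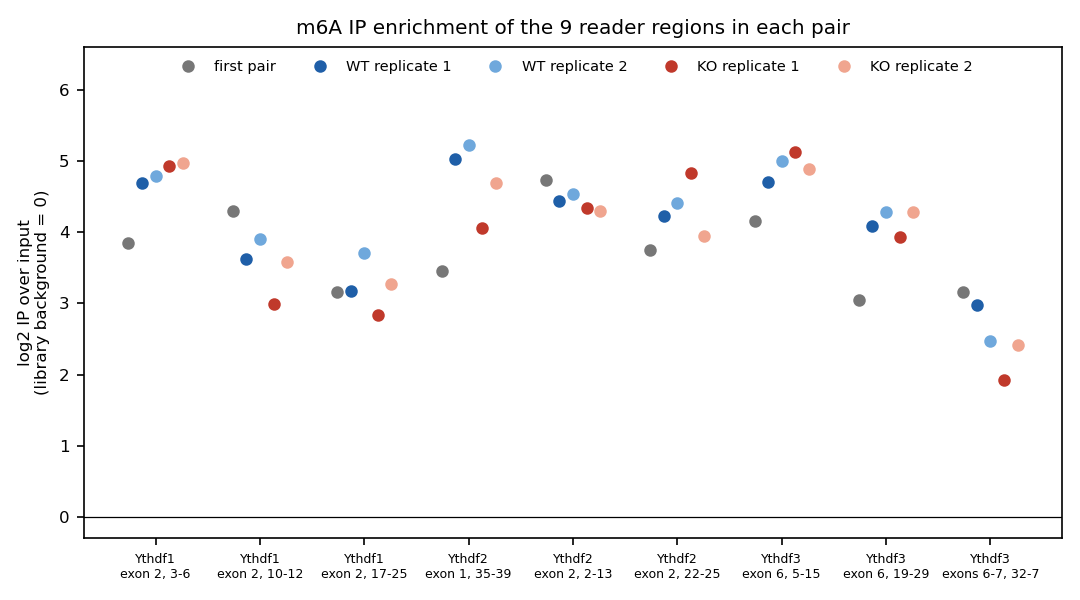
Log2 IP over input of the 9 regions of Ythdf1, Ythdf2 and Ythdf3 in each pair, with the library background at 0; each point is 1 pair and the axis labels give exon and windows. All points lie well above 0, and KO lies below WT without overlap in 4 regions, most widely at exon 1 windows 35 to 39 of Ythdf2.

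High windows were shared between libraries to different degrees. In Ythdf3, 51 windows had a winscore of at least 2 in at least 1 pair, and 42 had it in all 4 WT and KO pairs, 30 of them also in the first. In Ythdf2 the counts were 36, 25 and 20, and in Ythdf1 they were 25, 9 and 7. In Ythdc1 they were 26, 10 and 0, and in Ythdc2 24, 1 and 0. High in both WT and in neither KO were 2 windows of Ythdf2 and 0 of each other reader. High in both KO and in neither WT were 3 windows of Ythdf1, 0 of Ythdf2, 2 of Ythdf3, 1 of Ythdc1 and 0 of Ythdc2. The share of such windows over all genes was not computed, so these counts are no result about the readers. As a description, the winscores along a gene correlated between WT replicates at 0.919 for Ythdf1 over 66 windows, 0.944 for Ythdf2 over 84 and 0.959 for Ythdf3 over 108, where neighbouring windows share reads. Between KO replicates the values were 0.823, 0.802 and 0.933.

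Ythdc1 had m6A signal in the WT and KO pairs that the first pair did not bring out. Over the gene, the centred log2 IP over input was 1.05 in the first pair, 1.91 and 2.30 in the WT pairs and 1.72 and 1.63 in the KO pairs. Runs of high windows called in each library by itself numbered 0 in the first pair, 4 and 5 in the WT pairs and 4 and 4 in the KO pairs. To describe them, regions were also taken from the mean winscore of the 4 WT and KO IPs. This set was added after the data were seen and uses the libraries compared. It gave Ythdc1 5 regions: exon 2 windows 2 to 3, exon 4 windows 2 to 7, exon 16 windows 1 to 2, and exon 17 windows 2 to 5 and 7 to 9. In exon 4 the mean IP coverage of the region was 60.6 in the first pair, 71.8 and 122 in the WT pairs and 149 and 91.6 in the KO pairs, and the groups overlapped. Its centred log2 ratio was 1.83 in the first pair, 3.11 and 4.14 in the WT pairs and 4.52 and 3.82 in the KO pairs. The difference of KO from WT in this ratio was 0.33 in the exon 2 region, 0.55 in the exon 4 region and -0.66 in the exon 16 region.

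The 3′ exon of Ythdc1 held the other 2 main peaks, and both were lower in the KO libraries. In windows 2 to 5 of exon 17 mean IP coverage was 42.0 in the first pair, 159 and 171 in the WT pairs and 70.2 and 79.5 in the KO pairs, while mean input coverage was 22.3, 19.2 and 17.4, and 17.2 and 17.4 in the same order. The log2 ratio differed by -1.12 (WT mean 4.14, KO mean 3.02, limma adjusted p = 0.433). In windows 7 to 9 mean IP coverage was 31.9 in the first pair, 71.9 and 84.7 in the WT pairs and 25.4 and 19.6 in the KO pairs. The log2 ratio there differed by -1.79 (WT mean 2.85, KO mean 1.06, adjusted p = 0.433). Neither passed the test, and 0 of 21727 such regions did (0%). Both were at an unadjusted p under 0.05, as were 11.3% of all.

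Whole exons gave the same order for Ythdc1. Exon 17 holds both regions just described, so its values are no separate check on them. Exon 17 had a mean IP coverage of 18.2 in the first pair, 47.2 and 52.4 in the WT pairs and 20.5 and 22.2 in the KO pairs. Its share of the gene's IP coverage was 56.0 and 50.5% in the WT pairs and 27.7 and 33.4% in the KO pairs, and its share of the input was 46.5 and 48.6% in the WT pairs and 48.1 and 47.4% in the KO pairs. Exon 4 held 26.5 and 36.6% of the IP coverage in the WT pairs and 61.5 and 42.8% in the KO pairs. In the first pair exon 4 held 34.3% and exon 17 held 31.9%. Exon 17 was thus the leading exon in both WT IPs, and exon 4 in both KO IPs and in the first IP. The share of genes whose leading exon differs in this way was not computed, so this is a description. Mean IP coverage of exon 4 was 49.6 and 84.5 in the WT pairs and 101 and 63.3 in the KO pairs, and the groups overlapped. The log2 IP over input of exon 17 differed by -1.22 between KO and WT (limma adjusted p = 0.678). It was the 1 reader exon of 59 tested at an unadjusted p under 0.05, against 7.33% of 102218 exons of all genes, and 0 exons of any gene passed after adjustment (0%).

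Ythdc2 showed hardly any IP enrichment. Its centred log2 IP over input was 0.04 in the first pair, -0.27 and -0.75 in the WT pairs and -0.30 and -0.54 in the KO pairs, close to or below the library background of 0. Of its 140 windows, 6 were without IP signal in the first pair, 54 and 126 in the WT pairs and 124 and 114 in the KO pairs. The mean IP coverage of the gene was 1.37 in the first pair, 0.812 and 0.294 in the WT pairs and 0.829 and 0.667 in the KO pairs. A run in windows 1 to 2 of exon 28 was the 1 region found for Ythdc2 in the mean of the WT and KO IPs. Its IP coverage was 7.05 in the first pair, 9.15 and 8.13 in the WT pairs and 21.9 and 11.6 in the KO pairs, at an input coverage of 8.71, 5.55 and 3.91, and 4.31 and 3.04. The log2 ratio was higher in KO by 1.04 (WT mean 1.81, KO mean 2.85, limma adjusted p = 0.482), which did not pass. With a median IP coverage of 0 over the gene in 3 of the 4 WT and KO IPs, winscores of single Ythdc2 windows have little weight. Winscores along Ythdc2 correlated at 0.497 between the WT replicates and 0.487 between the KO replicates.

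**Figure D3:**
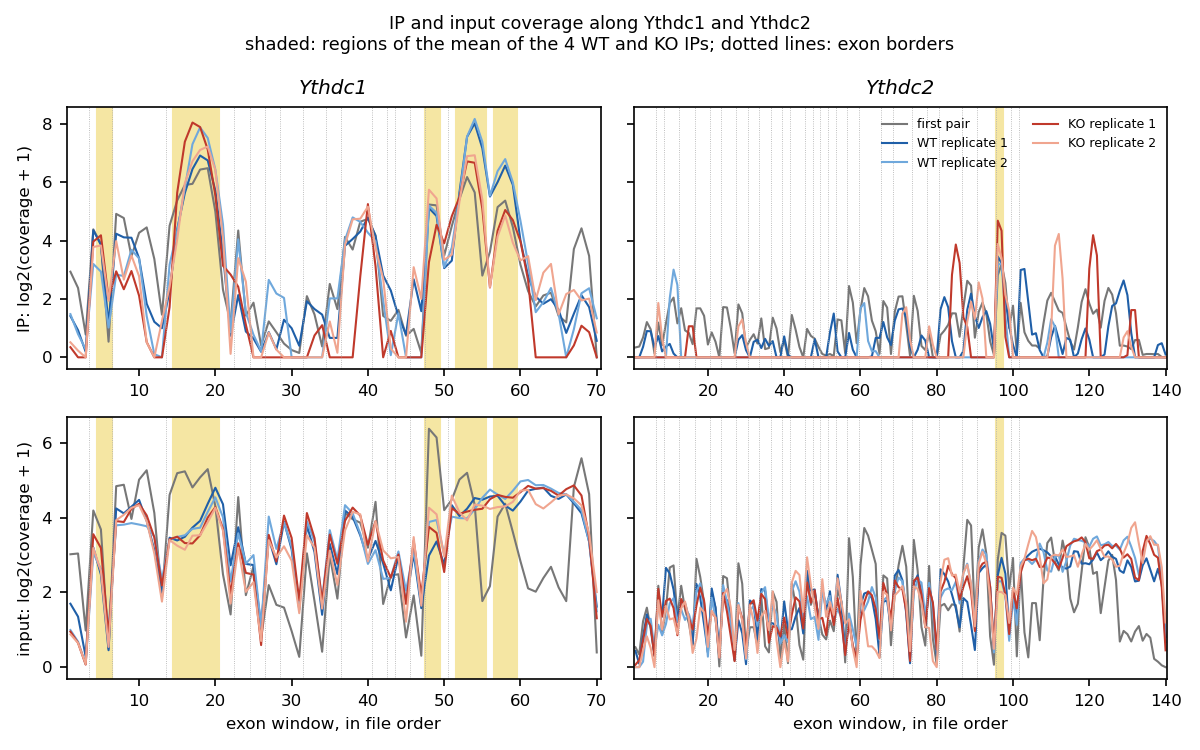
IP coverage (top) and input coverage (bottom), both as log2(coverage + 1), along the exon windows of Ythdc1 and Ythdc2 in file order, with 1 line per library. Shading marks regions of the mean of the 4 WT and KO IPs and dotted lines mark exon borders. In Ythdc1 the 2 shaded stretches in the last exon have higher IP lines in WT than in KO, and Ythdc2 has 1 shaded stretch.

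In message abundance the readers ran from a WT mean of 31.0 for Ythdf1 to 3.49 for Ythdc2, and KO and WT were close for 4 of the 5. Ythdf1 was the most abundant, with a mean input coverage per window of 45.8 in the first pair, 30.9 and 31.0 in the WT pairs and 36.6 and 35.8 in the KO pairs. Ythdf2 had 18.2 in the first pair, 19.2 and 21.3 in the WT pairs and 19.2 and 18.0 in the KO pairs. Ythdf3 had 19.2 in the first pair, 17.5 and 19.3 in the WT pairs and 18.7 and 17.1 in the KO pairs. Ythdf2 and Ythdf3 were neighbours in this order and their values overlapped. Ythdc1 was lower, with 14.7 in the first pair, 12.1 and 12.5 in the WT pairs and 12.5 and 11.4 in the KO pairs, and Ythdc2 the lowest, with 3.33 in the first pair, 3.29 and 3.70 in the WT pairs and 3.50 and 3.65 in the KO pairs. By this mean, Ythdf1, Ythdc1 and Ythdc2 each stood apart from their neighbours in every library. By the gene median of input coverage, Ythdc1 and Ythdf2 were close in the first pair, at 7.26 and 7.77. In the WT and KO pairs these medians were 10.2 to 11.9 for Ythdc1 and 19.1 to 22.2 for Ythdf2. These are bulk libraries, in which fewer cells of a type and less RNA per cell cannot be told apart.

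Ythdf1 was the 1 reader of 5 that passed the test for transcript level, and it was higher in KO. Its mean input coverage was 31.0 ± 0.0207 in WT and 36.2 ± 0.549 in KO (SD, n = 2 each), and both KO values were above both WT values. The change was 0.22 on the log2(coverage + 1) scale (SE 0.061, 95% interval 0.08 to 0.36, limma adjusted p = 0.0264), a ratio of 1.17. Of all 11211 genes tested, 26.6% passed, 13.0% higher and 13.6% lower in KO, so a call in 1 reader of 5 is near the background. The call was lost without WT replicate 1 (adjusted p = 0.121), without WT replicate 2 (0.11) and without KO replicate 1 (0.0556). It was also lost on the deposited gene medians (adjusted p = 0.122) and with no filter on low genes (adjusted p = 0.0976).

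The other 4 readers had changes near 0 with narrow intervals. The log2 change from WT to KO was -0.12 for Ythdf2 (95% interval -0.28 to 0.04, limma adjusted p = 0.251), and its lowest WT and highest KO value were nearly equal. It was -0.04 for Ythdf3 (95% interval -0.20 to 0.13) and -0.04 for Ythdc1 (95% interval -0.19 to 0.12). For Ythdc2 it was 0.03 (95% interval -0.15 to 0.20). The adjusted p-values of these 3 were 0.741, 0.722 and 0.831. The median change was -0.04 over the 5 readers and -0.0048 over all genes tested.

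**Figure D4:**
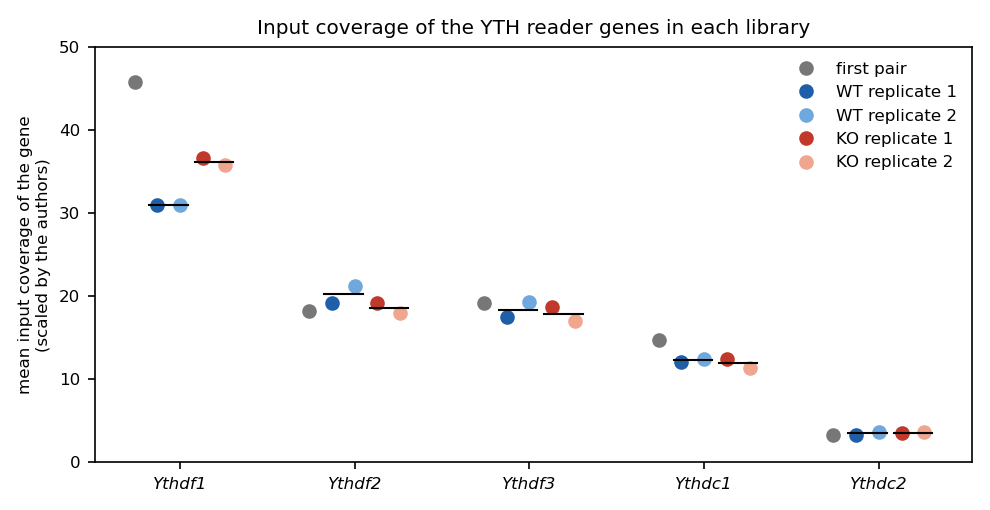
Mean input coverage of each reader gene, in the authors' scaled units on a linear axis from 0, with 1 point per library and short lines at the WT and KO means. The KO points of Ythdf1 lie above its WT points, and WT and KO overlap or nearly touch for Ythdf2, Ythdf3, Ythdc1 and Ythdc2.

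No reader exon passed the test for a change apart from its gene between KO and WT. Of the 64 exons, 59 had enough input coverage to test, and 0 passed, as did 0 of 101513 exons of all genes (0%). At an unadjusted p under 0.05 there was 1 reader exon, exon 12 of Ythdc1, with a difference of 0.61 (limma adjusted p = 0.845), against 5.68% of all exons.

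A deposited table of RPKM values, with columns named as inputs, gave the readers a different picture in KO. Ythdf2 was listed at 19.47 in the first pair, 20.04 and 22.18 in the WT pairs and 97.6 and 109 in the KO pairs. Its KO input coverage was 19.2 and 18.0 and its KO IP coverage 95.7 and 93.6, so the RPKM of KO lay by the IP track and that of WT by the input track. Ythdf1 was listed at 32.8 and 32.8 in the WT pairs and 99.0 and 93.7 in the KO pairs, Ythdf3 at 17.9 and 19.8 in the WT pairs and 59.2 and 56.5 in the KO pairs, and Ythdc1 at 15.1 and 15.5 in the WT pairs and 29.9 and 28.8 in the KO pairs. Ythdc2, the reader with the lowest IP coverage, was lower in the KO columns, at 3.96 and 4.33 in the WT pairs and 1.77 and 0.957 in the KO pairs. On these columns all 5 readers passed the test, as did 65.0% of 12245 genes, with log2(RPKM + 1) changes of 1.53, 2.24, 1.57, 0.89 and -1.14 for Ythdf1, Ythdf2, Ythdf3, Ythdc1 and Ythdc2. Across 11211 genes the column of KO replicate 1 correlated at 0.958 with the IP coverage of that pair and at 0.689 with its input coverage. For KO replicate 2 the values were 0.973 and 0.704, and for WT replicate 1 they were 0.682 and 0.992. The input coverage of the window files was therefore used for transcript levels.

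**Figure D5:**
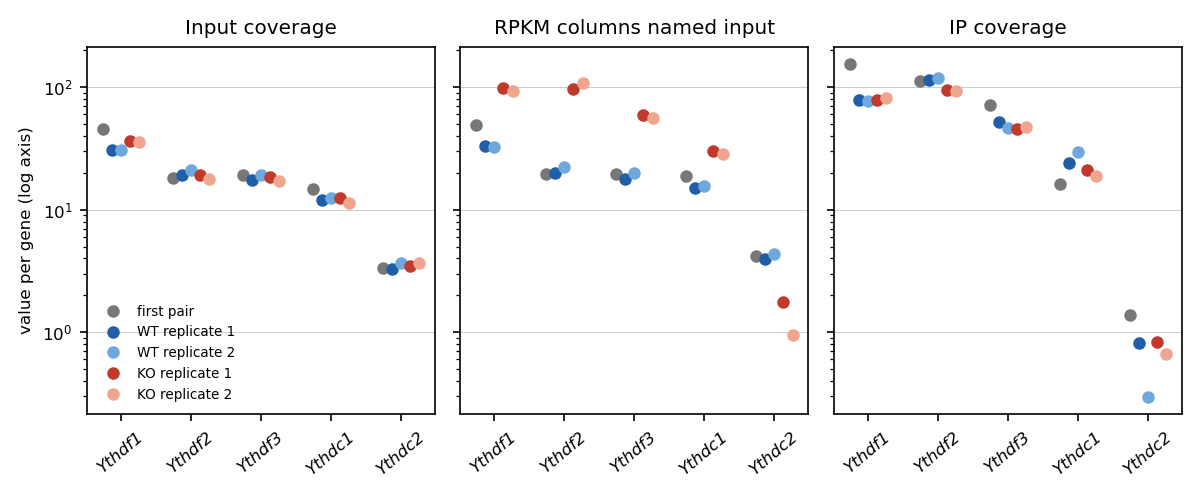
Values of the 5 reader genes in each library on a log axis: mean input coverage (left), the deposited RPKM columns named as inputs (middle) and mean IP coverage (right). In the middle panel the KO points of Ythdf1, Ythdf2, Ythdf3 and Ythdc1 lie above the WT points and those of Ythdc2 below.

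The first input had another profile along the readers than the other 4 inputs. In Ythdf1 its coverage was 70.5 in the long internal exon and 28.9 in exon 1, the 3′ exon, where the WT and KO inputs had 25.0 to 32.2 and 43.4 to 54.4. In Ythdf3 it was 40.5 in exon 6 and 10.9 in exon 7, where the others had 13.5 to 15.9 and 21.4 to 25.4. In Ythdf2 the 3′ exon was at 5.86 in the first input and at 17.4 to 21.9 in the others. The log2 ratio of the longest internal exon to the longest outer exon was higher in the first input than in the mean of the others by 1.99 in Ythdf1, 2.00 in Ythdf2, 2.41 in Ythdf3, 1.44 in Ythdc1 and 0.17 in Ythdc2. Over 9940 genes the median of this difference was 0.47, and 68.5% were above 0. Among the 552 of them with both exons of 20 or more windows, as in the 3 Ythdf genes, the median was 0.87, and 85.0% were above 0. The first pair has 1 library, so this has no replicate check, and its part in the regions called in the first IP was not tested.

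Input coverage fell off inside the 3′ exon of Ythdf2, a step picked after the profile was seen and given with no test. Windows 24 to 39 had a mean input coverage of 37.4 and 46.9 in the WT pairs and 39.0 and 37.0 in the KO pairs, and windows 1 to 21, which lie farther 3′, had 2.86 and 3.35 in the WT pairs and 3.36 and 3.29 in the KO pairs. The ratio was 13.1 and 14.0 in the WT pairs and 11.6 and 11.3 in the KO pairs, and 4.70 in the first pair. The m6A region of this exon, windows 35 to 39, lay on the well-covered side.

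The enzymes and binding proteins around the readers changed in both directions. Of 8 writer complex genes, 0 rose and 2 fell: Mettl3 by 0.43 and Zc3h13, a scaffold of the complex, by 0.36 on the log2 scale (limma adjusted p = 0.00259 and 0.0152). Of the 2 demethylases, Fto was higher in KO by 0.22 (adjusted p = 0.0446) and Alkbh5 did not pass, with a difference of -0.19. Of 11 binding proteins outside the YTH family, 2 rose and 2 fell. Igf2bp2, which binds and stabilises messages, had an input coverage of 10.6 and 11.5 in the WT pairs and 16.3 and 14.0 in the KO pairs and rose by 0.42 (adjusted p = 0.00503). Elavl1 rose by 0.20, and Hnrnpc and Fxr2 fell by 0.29 and 0.21. These shares are to be read against 13.0% higher and 13.6% lower over all genes.

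The decay machinery that YTHDF2 works with was described in the same way, against 13.0% of all genes higher and 13.6% lower in KO. Of 11 tested decay granule genes of 12 listed, 0 rose and 3 fell: the decapping activator Dcp1a by 0.45, the decapping scaffold Edc4 by 0.36 and the decapping enzyme Dcp2 by 0.25 (limma adjusted p = 0.00269, 0.0102 and 0.0257). Dcp1a had an input coverage of 6.02 and 6.11 in the WT pairs and 4.46 and 3.92 in the KO pairs. Of 11 CCR4-NOT genes 1 rose and 1 fell, the deadenylase subunit Cnot7 by 0.24 and Cnot10 by 0.25. Of the 4 YTHDC1 partners in splicing and export and the 2 tested YTHDC2 partners, 0 passed in limma and 0 were at an unadjusted p under 0.05. The median change of the lists ran from -0.06 to 0.07, against -0.0048 over all genes. When each WT or KO library was left out in turn, Mettl3, Igf2bp2, Dcp1a and Edc4 passed in 4 of 4 fits. Zc3h13, Hnrnpc and Cnot7 passed in 2 of them, Fto, Fxr2, Cnot10 and Dcp2 in 1, and Elavl1 in 0.

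The genes most like each reader across the 5 inputs were picked by the smallest root mean square distance of centred log2 coverage, among genes of similar level. For Ythdf1 they were Mrps30, Lsm2 and Atxn10, at distances of 0.028 each, where the median of 1889 candidates was 0.259. Mrps30 had 29.4 in the first pair, 20.8 and 20.8 in the WT pairs and 24.7 and 23.6 in the KO pairs, the order seen in Ythdf1. For Ythdf2 they were Peli1, Triap1 and Cul2, for Ythdf3 Pum2, Nras and Khdrbs1, and for Ythdc1 1810030O07Rik, Nfs1 and Clptm1l. For Ythdc2 they were the noncoding RNA listed as guttman:linc1257.3, Ptpn2 and Cenpi. The distances of these 12 genes were 0.012 to 0.025. With 5 points per gene, this likeness is a description.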

How the data were processed

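The submitters' processing notes name TopHat 1.1.3 and the build mm9. The read filters, gene model and scaling factors were not given in the sources used here. The authors deposited, per the file headers, input and IP coverage per exon window (a signal scaled per library), its gene median, a log2 winscore, and RPKM values per gene. The winscore was recomputed from the coverage. Transcript levels were log2(mean input coverage + 1) in the 11211 genes that reached 1 in 2 or more of the WT and KO inputs. Every test was limma 3.58.1 (lmFit, eBayes with trend, R 4.3.3), KO against WT, 2 libraries each, Benjamini-Hochberg over all features, threshold 0.05. In data simulated with normal noise, 200 rows per comparison were changed, in both directions. There a log2 change of 2 was recovered in 100% of changed genes and 92% of changed exons (input). For changed regions it was recovered in 5% by the winscore and 49% by the ratio. A change of 1 was recovered in 100, 24, 0 and 4% in the same order. A region that did not pass may therefore still differ. In the real data the ratio was lower in KO in 77.6% of all regions, so these rates need not hold for the tests here. Regions and exons needed a mean input coverage of 1 for the ratio. The members and lists were chosen with earlier results of these data known. All members and their regions of the first IP are named, and of each list the genes that passed, along with Alkbh5. The plan was to name up to 3 genes per list by smallest p. Elavl1 was added after its value was seen. Meioc is listed as Gm1564. Dcp1b and Rbm46 were too low to test. Overlapping and antisense genes could not be separated. No sequence was printed. The alternatives were other filters, pseudocounts, scalings, thresholds, left-out libraries and a replicate block.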

Additional observations from a re-analysis of the deposited data

How the results depend on the processing

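Under the alternatives tried, Ythdf1 kept its direction throughout but not its call: the change was 0.22 (limma adjusted p = 0.0976) with no filter on low genes and 0.25 (adjusted p = 0.122) on the deposited gene medians, so 0 readers passed under either, and 0.20 to 0.23 with each library left out, where 0 to 1 readers passed. With the RPKM values all 5 readers passed, and Ythdf2, Ythdf3, Ythdc1 and Ythdc2 changed sign, to 2.24, 1.57, 0.89 and -1.14. With each library left out the change ranged from -0.106 to 0.030 for Ythdf3, from -0.097 to 0.022 for Ythdc1 and from -0.039 to 0.092 for Ythdc2. The count of reader regions past the test of the ratio was 0 to 1 with a library left out. For Ythdf2 exon 2 windows 22 to 25 the leave-one-out range was -0.82 to 0.39 in the winscore and -0.37 to 0.52 in the ratio. For Ythdf3 windows 5 to 15 the winscore ranged from -0.17 to 1.06, and for windows 19 to 29 it ranged from -0.46 to 0.70 and the ratio from -0.26 to 0.10. With regions of the mean of 4 IPs, chosen after the data were seen, the Ythdf3 regions merged into 1, exon 6 window 2 to exon 7 window 8. The merged region differed by -0.065 in the ratio and 0.082 in the winscore. With regions at a winscore of at least 1 they merged as well, with a winscore difference of 0.068. The separate Ythdf3 regions thus have no value of their own under these 2 settings. The causes were not tested. The remaining results on the readers kept their direction under the alternatives run for them. With 2 libraries per group they also kept their side of the threshold. The ratio of Ythdf2 exon 1 windows 35 to 39 was -1.07 without KO replicate 2 and -0.44 without KO replicate 1. Each of these fits has a lone KO library assumed to vary like the WT libraries. Calls of several listed genes around the readers, Alkbh5 among them, changed with a library left out. The replicate numbers did not pair the libraries: deviations of same-numbered libraries correlated at -0.035 to 0.027 over the 4 kinds of value. With a replicate block Ythdf1 stayed at 0.22 (adjusted p = 0.038), 1 reader passed, and 0 exons and 0 regions passed. IP depth, below that of the first IP in all 4 WT and KO libraries, limits what can be said of low windows, above all in Ythdc2.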
